A study of Rattus norvegicus with 6 samples.

Results

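The cytochrome P450 genes of the rat were followed in pancreatic duct glands, mucin-producing pockets that open into the larger ducts. Members were all listed genes whose symbol has the form Cyp, a family number, a subfamily letter and, where present, a gene number, leaving out Cyp51, an enzyme of cholesterol synthesis. This gave 67 of 15679 listed rows, of which 28 were placed by textbook substrate class under xenobiotics, 19 under fatty acids, 11 under steroids and bile acids, and 5 under vitamins, with 4 not assigned to a class.

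The libraries came from Sprague-Dawley rats of both genotypes, 3 wild type (WT26, WT1 and WT4) and 3 HIP (HIP30, HIP2 and HIP3), named by genotype and the number in the title. The HIP transgene encodes human islet amyloid polypeptide under an insulin promoter, so that it is made in beta cells and not by design in the glands. The series describes these rats as pre-diabetic and as a type 2 diabetes model, and the wild-type rats lack the transgene. Glands were recognised by their shape and cut out by laser, and their total RNA was made into libraries with a very-low-input kit. The labels give no age, no sex and no treatment, and do not say whether each library is a separate animal, so a p-value here reflects differences among libraries that may be technical.

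P450 enzymes are haem proteins of the endoplasmic reticulum or mitochondrion that use molecular oxygen to hydroxylate or epoxidise lipophilic substrates. The reticulum enzymes receive electrons from the flavoprotein encoded by Por, the mitochondrial ones from ferredoxin, encoded by Fdx1. Liver holds the richest set, which clears drugs and makes bile acids, while epithelia outside the liver use members that inactivate retinoic acid, handle vitamin D or oxidise fatty acids.

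Levels are given as CPM, a gene's reads relative to the library total after trimmed-mean (TMM) scaling, and rows of 3 values follow the order WT26, WT1, WT4 for wild type and HIP30, HIP2, HIP3 for HIP. Library totals ran from 15141136 to 17574682 reads, and 3 reads, taken as the limit that a count of 0 allows, corresponded to 0.179 to 0.184 CPM; this limit covers counting error only. The epithelial transcripts Krt19 and Epcam were high in each library. Krt19, a duct keratin, ran from 1815 to 7326 CPM in wild type and from 1514 to 2307 CPM in HIP. Epcam, an epithelial surface protein, ran from 1463 to 2672 and from 1435 to 1814 CPM. Tff2, a trefoil peptide also chosen as a gland marker, was low, at 0.179 to 1.41 CPM in wild type and 0.797 to 9.3 in HIP. Of the other chosen duct and gland markers, Krt7, Sox9, Muc6 and Onecut2 were not among the rows used. WT4 and HIP3 stood apart by islet transcripts, with Ins1 (insulin) at 7761 and 3717 CPM against at most 102 CPM elsewhere. Transcripts of the enzyme-making acinar cells set the same libraries apart. Without its top gene Cela1 the acinar list (6 of 7 genes) summed to 42.6 CPM in WT4 and 77.2 in HIP3, against at most 3.18 elsewhere. Cela1 itself was highest in WT26, at 35.3 CPM. CPM is not corrected for transcript length, and no lengths of the build used were at hand, so levels are compared between libraries for 1 gene and not between genes. In tissue libraries of this kind, fewer cells of a type and less RNA per cell cannot be told apart.

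Of the 67 genes, 25 had a mean of at least 1 CPM over the 6 libraries. A low-value filter (about 10 reads in at least 3 libraries) passed 27 for testing among 12102 genes. By class, 5 of 28 xenobiotic genes passed, 10 of 19 fatty acid genes, 5 of 11 steroid genes, 3 of 5 vitamin genes and 4 of 4 unassigned genes. Just inside the filter stood Cyp39a1, Cyp4a1 and Cyp2e1, each with 3 libraries at the level, and just outside it Cyp4f18, Cyp2c6v1, Cyp21a1 and Cyp26b1, each with 2. The groups were compared with limma, a linear model on log2 CPM that shares information on the spread between genes, and p-values were adjusted by Benjamini-Hochberg over all 12102 genes with a threshold of 0.05.

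Promoter sequences are shown for 3 members chosen with their values known, and the groups overlapped for each of them. Cyp26a1, a retinoic acid hydroxylase gene, and the xenobiotic gene Cyp3a9 had WT26 as their highest library. Cyp2s1, an epithelial gene, had WT26 as its lowest library. Each sequence is the 250 bases before the RefSeq start in GRCr8, on the gene's strand, 5′ to 3′. Capitals mark matches on either strand to AGGTCA and AGTTCA, the hexamers that nuclear receptors bind, to GCGTG, the core bound by the aryl hydrocarbon receptor, and to TATAAA, the TATA box.
Cyp26a1 promoter, chr1:244883572-244883821, plus strand: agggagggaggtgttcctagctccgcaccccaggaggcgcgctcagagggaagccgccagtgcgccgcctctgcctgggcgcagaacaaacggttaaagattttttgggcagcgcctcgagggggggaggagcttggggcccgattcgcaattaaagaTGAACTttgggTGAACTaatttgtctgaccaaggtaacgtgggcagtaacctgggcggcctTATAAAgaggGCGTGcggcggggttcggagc
Cyp3a9 promoter, chr12:21960161-21960410, minus strand: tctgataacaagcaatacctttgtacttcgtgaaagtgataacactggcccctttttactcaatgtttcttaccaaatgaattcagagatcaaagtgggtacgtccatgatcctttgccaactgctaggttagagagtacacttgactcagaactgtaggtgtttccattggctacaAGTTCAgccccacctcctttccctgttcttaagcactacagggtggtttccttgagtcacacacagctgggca
Cyp2s1 promoter, chr1:90453074-90453323, minus strand: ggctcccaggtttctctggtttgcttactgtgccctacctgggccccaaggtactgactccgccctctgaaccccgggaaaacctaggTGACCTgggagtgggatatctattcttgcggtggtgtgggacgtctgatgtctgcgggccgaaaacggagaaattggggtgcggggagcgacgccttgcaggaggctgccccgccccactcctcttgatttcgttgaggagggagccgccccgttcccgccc

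In the Cyp26a1 window 2 AGTTCA hexamers lie on the opposite strand, so that the printed strand reads TGAACT, and begin 92 and 81 bases before the start. Together they make the spaced direct repeat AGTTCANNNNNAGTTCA, the form of element that retinoic acid receptors bind, which contains both hexamers and so is not counted apart from them. This exact spelling was in 3 of 33469 promoter windows of all genes (0.00896%) and in 1 of the 58 windows of the 55 members that had one. Spaced repeats with AGGTCA or with mixed hexamers were not searched, so the share does not give how rare such elements are. The same window holds TATAAA beginning 31 bases and GCGTG 21 bases before the start. Cyp3a9 has 1 AGTTCA beginning 73 bases before its start, and Cyp2s1 1 AGGTCA on the opposite strand at 162 bases. Across all windows, searched on both strands, AGGTCA was found in 14.1% (34.5% of member windows), AGTTCA in 12.2% (24.1%), GCGTG in 25.9% (27.6%) and TATAAA in 12.9% (29.3%). Windows of neighbouring paralogs share sequence, and a match of letters does not show that a factor binds.

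No P450 gene passed limma's test between HIP and wild-type glands at an adjusted p of 0.05, and none of the 12102 genes did (0%). At an unadjusted limma p under 0.05 stood 2 of the 27 tested members, against 792 of all genes (6.54%), and limma-voom, run as an alternative, gave 0 calls after adjustment and, before it, 3 members (Cyp4f17, Cyp4b1 and Cyp3a9) among 914 of all genes (7.55%). Cyp4f17 was the member with the higher HIP level (background 3.29%) and Cyp4b1 the one with the lower (3.26%). The HIP minus wild-type difference was positive for 9 members and negative for 18, with a median log2 difference of -0.15 against 0.0097 for all genes tested. Single libraries moved this median, to -0.0025 without WT4, -0.33 without WT1 and -0.31 without HIP30. The groups did not overlap for Cyp4f17 (higher in HIP, background 5.27%) and for Cyp11a1 and Cyp4f40 (lower, background 4.27%), 1 of 27 and 2 of 27; each background is the share of all tested genes that met the same condition.

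**Figure D1:**
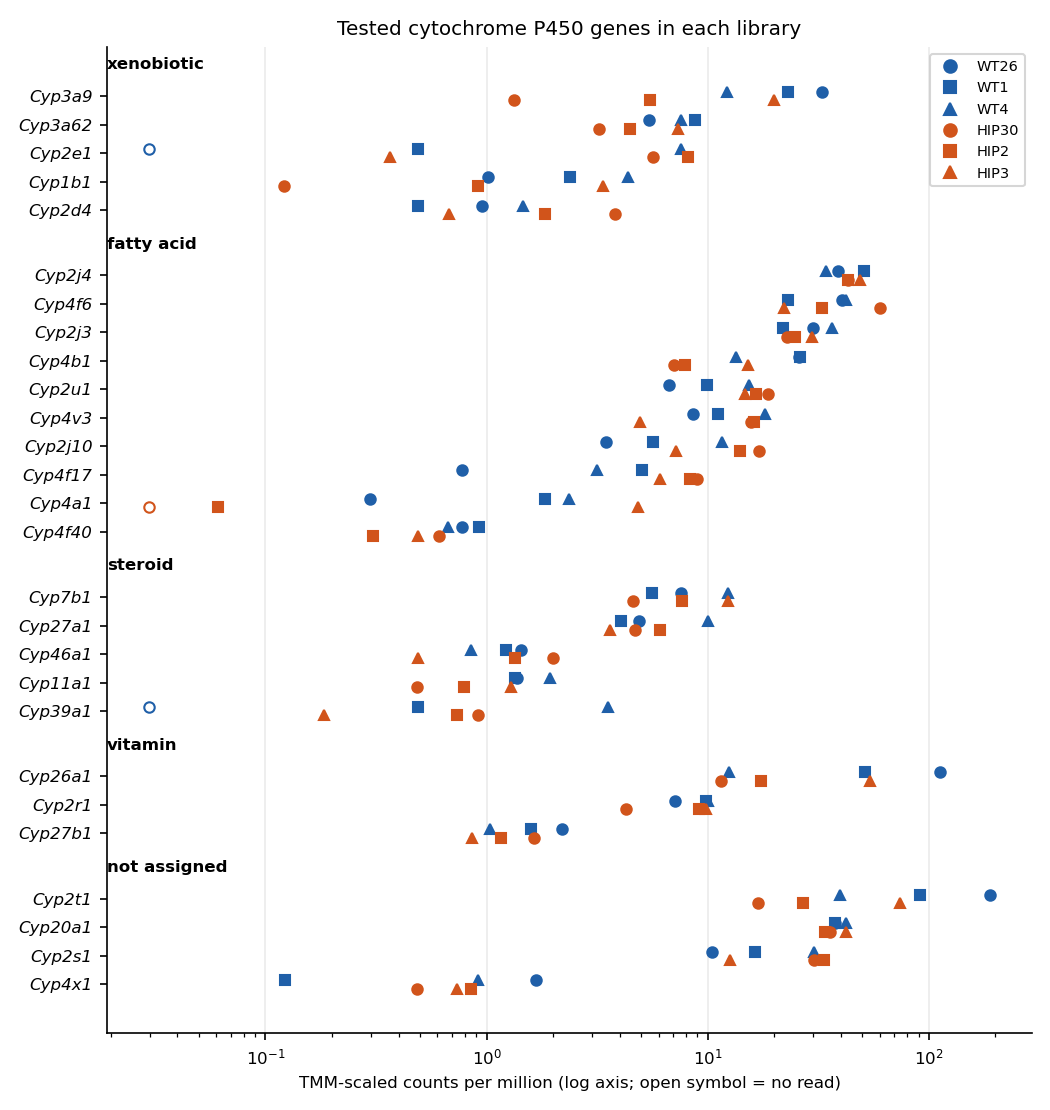
TMM-scaled CPM (log axis) of the 27 tested cytochrome P450 genes, 1 symbol per library, blue for wild type and orange for HIP, grouped by substrate class. Cyp2t1 spans 16.96 to 189 CPM between libraries, while Cyp20a1 lies between 34.1 and 42.3 CPM in all 6.

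Retinoic acid and vitamin D are handled by the vitamin class. Cyp26a1, which hydroxylates retinoic acid for clearance and is a textbook target of its receptors, stood at 112, 51.5 and 12.5 CPM in wild type and at 11.5, 17.5 and 54.0 in HIP. The highest library was wild type, the lowest HIP, and HIP3 stood above WT1 and WT4, so the groups overlapped. Means were 58.6 ± 50.1 and 27.7 ± 23.0 CPM (SD, n = 3), a log2 difference of -0.91 (SE 0.83, limma adjusted p = 0.821). Between WT26 and HIP30 alone the log2 difference was -3.27, and among the 4 libraries numbered 1 to 4 it was 0.28, the opposite sign. Its relative Cyp26b1, which also clears retinoic acid and did not pass the filter, stood at 0.358, 0.246 and 3.89 CPM in wild type and at 0.0608, 0.366 and 1.1 in HIP. WT4, low for Cyp26a1, was the high library for Cyp26b1.

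Cyp2r1, which adds the first hydroxyl group to vitamin D, stood at 7.09, 9.83 and 10.1 CPM in wild type and at 4.26, 9.16 and 9.86 in HIP. Only HIP30 lay outside the wild-type range. The log2 difference was -0.28 (SE 0.43, limma adjusted p = 0.909). In the GRCr8 annotation this gene's span overlaps Pde3b, and the counting is not stated to use strand, so reads of the pair may not be separable. Cyp27b1, which makes the active hormone, stood at 2.21, 1.6 and 1.03 CPM in wild type and at 1.64, 1.16 and 0.858 in HIP, with overlapping groups. Cyp24a1, which degrades the hormone, was seen by 3 reads in WT4 and 6 in HIP3 alone.

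The 3 tested vitamin genes all had a negative difference (median log2 -0.35), and no member of the class passed the test. The median was -0.19 without WT26, -0.62 without WT4 and -0.066 among the libraries numbered 1 to 4. Summed over the class, CPM was 122 in WT26, 63.1 in WT1 and 27.7 in WT4, against 17.4 in HIP30, 28.1 in HIP2 and 66.2 in HIP3. Cyp26a1 alone gave most of the sum in the high libraries, at 112 CPM in WT26, 51.5 in WT1 and 54.0 in HIP3.

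Among the xenobiotic genes, Cyp3a9, of the broad drug-metabolising Cyp3a subfamily, stood at 32.8, 23.0 and 12.3 CPM in wild type and at 1.34, 5.5 and 20.0 in HIP. HIP30 and HIP2 lay below all wild-type libraries and HIP3 lay between WT4 and WT1. Means were 22.7 ± 10.3 and 8.96 ± 9.82 CPM (SD, n = 3), a log2 difference of -1.95 (SE 0.88, limma adjusted p = 0.691). The difference was -4.50 between HIP30 and WT26 and -0.67 among the libraries numbered 1 to 4, and without single libraries it ran from -2.88 to -0.99. In GRCr8 its span overlaps Vamp7, which ran from 17.3 to 30.3 CPM and was highest in HIP3. Cyp3a62, a paralog found in gut, stood at 5.43, 8.78 and 7.6 CPM in wild type and at 3.22, 4.46 and 7.35 in HIP. HIP3 lay within the wild-type range and the other HIP libraries below it (log2 difference -0.58, SE 0.45, limma adjusted p = 0.781).

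The alcohol-oxidising gene Cyp2e1 stood at 0, 0.491 and 7.6 CPM in wild type and at 5.65, 8.18 and 0.368 in HIP. Both groups held libraries near 0 and libraries above 5 CPM, and the log2 difference went from 5.57 between HIP30 and WT26 to -0.11 among the other 4 libraries. Cyp1b1, an aryl hydrocarbon receptor target that oxidises oestradiol, stood at 1.01, 2.4 and 4.38 CPM in wild type and at 0.122, 0.916 and 3.37 in HIP. Within each group its level was lowest in the library numbered 26 or 30 and highest in WT4 or HIP3. Cyp2d4 stood at 0.954, 0.491 and 1.46 CPM in wild type and at 3.83, 1.83 and 0.674 in HIP, where HIP30 and HIP2 lay above all wild-type libraries. Cyp1a1, the classical receptor target, had 16 reads in WT4, 9 in HIP2, 3 in HIP30 and none in the other 3 libraries. The class median over its 5 tested genes was -0.58, with 2 positive and 3 negative, and it was -0.30 without HIP30 and -0.89 without HIP3.

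Most liver-type members lay at or near 0. Of the 40 P450 genes below the filter, with 1 to 99 reads over all 6 libraries, 26 were highest in WT4, where 38 of the 40 had a read, against 13 in WT26, 10 in WT1, 17 in HIP30, 16 in HIP2 and 25 in HIP3. As shares these were 32.5%, 25%, 95%, 42.5%, 40% and 62.5% in the order WT26, WT1, WT4, HIP30, HIP2, HIP3. All 3573 genes below the filter gave 30.4%, 31.5%, 81.2%, 38.3%, 39.7% and 48.6% in that order, so WT4 was the fullest library for weakly covered genes as a whole. Members below the filter that reached 1 CPM in some library numbered 9, all of them in WT4, with Cyp21a1 also in WT26 and Cyp2c6v1 and Cyp26b1 also in HIP3. The drug-metabolising genes among them were Cyp3a18 (2.55 CPM in WT4, 0.0613 in HIP3), Cyp2c6v1 (2.13 and 1.23), Cyp2c7 (1.34 and 0.123) and Cyp2b1 (1.16 and 0.123), none of which had a read in the other 4 libraries. Cyp2c13 had 24 reads, all in WT4 (1.46 CPM), and the fatty acid hydroxylase Cyp4f1 reached 1.09 CPM there and 0.123 in HIP3.

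The defining hepatocyte transcripts were near 0 in these libraries: Alb (albumin) was at most 0.676 CPM, and Tat, a liver aminotransferase, had a read in WT4 alone (0.0608 CPM). The summed hepatocyte list, with 6 of 6 genes in the tables, ran from 125 to 262 CPM in wild type and from 128 to 200 CPM in HIP, and was lowest in WT4. Most of its reads came from Serpina1, which is not confined to hepatocytes and stood at 115 CPM in WT4. The sum of the other 5 genes was instead highest in WT4, at 10.3 CPM, against 3.49 to 8.39 CPM in the other libraries, with Apoa1 (0.912 CPM) and Cps1 (1.22 CPM) highest there and Apob at 7.66 CPM. Beta-cell transcripts were highest in WT4 and HIP3, where the summed list (4 of 5 genes) reached 11288 and 5045 CPM. The acinar list without Cela1 was also highest in WT4 and HIP3, at 42.6 and 77.2 CPM. The part of any of these lists in the detection of weakly covered P450 genes was not tested.

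**Figure D2:**
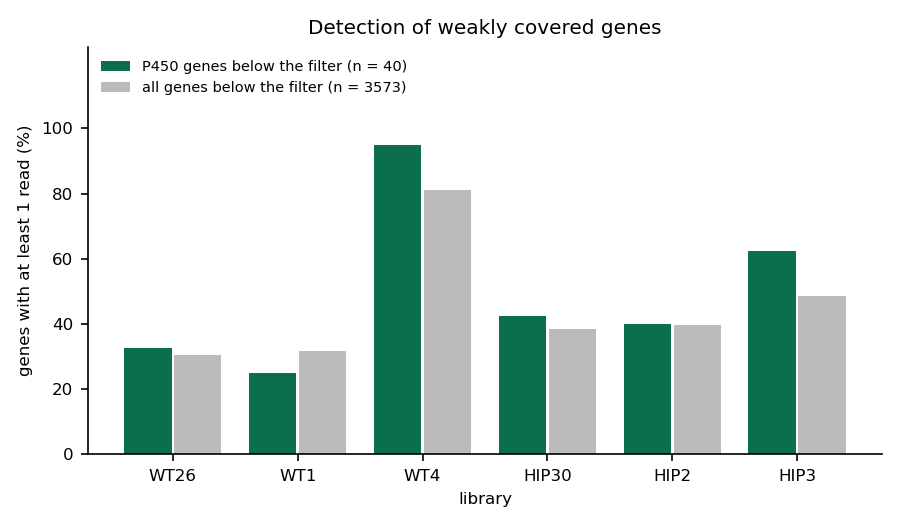
Share of genes with at least 1 read in each library, for the 40 P450 genes below the filter (green) and for all 3573 genes below it (grey). WT4 stands highest in both, at 95% and 81.2%, and HIP3 follows at 62.5% and 48.6%.

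The fatty acid class held the most members with reads throughout. Cyp2j4, an arachidonic acid epoxygenase, stood at 39.0, 51.0 and 34.4 CPM in wild type and at 43.0, 43.0 and 48.9 in HIP. All HIP libraries lay within the wild-type range (log2 difference 0.13, SE 0.22, limma adjusted p = 0.916). Its paralog Cyp2j3, also an epoxygenase, stood at 29.99, 22.0 and 36.4 CPM in wild type and at 22.8, 24.97 and 29.6 in HIP, again within the wild-type range. Cyp4f6, of the subfamily that hydroxylates leukotrienes, stood at 40.5, 23.2 and 42.1 CPM in wild type and at 60.2, 32.9 and 22.1 in HIP. Its highest and lowest libraries were both HIP (log2 difference 0.048, SE 0.40, limma adjusted p = 0.984), and the difference was 0.57 between HIP30 and WT26 and -0.21 among the libraries numbered 1 to 4.

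Cyp4b1, which hydroxylates fatty acids and activates some protoxins, stood at 25.9, 26.1 and 13.4 CPM in wild type and at 7.05, 7.88 and 15.3 in HIP. HIP30 and HIP2 lay below every wild-type library, and HIP3 was just above WT4. Means were 21.8 ± 7.28 and 10.1 ± 4.52 CPM (SD, n = 3), a log2 difference of -1.13 (SE 0.42, limma adjusted p = 0.691). The sign held without each single library (-1.47 to -0.92), between HIP30 and WT26 (-1.86) and among the libraries numbered 1 to 4 (-0.76).

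Cyp4f17, a further member of the leukotriene-hydroxylating subfamily, stood at 0.775, 5.04 and 3.16 CPM in wild type and at 8.94, 8.37 and 6.07 in HIP. All HIP libraries lay above all wild-type libraries, by the least margin between HIP3 and WT1. Means were 2.99 ± 2.14 and 7.79 ± 1.52 CPM (SD, n = 3), a log2 difference of 1.66 (SE 0.67, limma adjusted p = 0.691). It was 3.34 between HIP30 and WT26, 0.82 among the libraries numbered 1 to 4, and 0.92 to 2.19 when single libraries were left out. The Cyp4f genes are close paralogs, and reads may be divided between them. Cyp4f40, which did not overlap in the other direction, stood at 0.775, 0.921 and 0.669 CPM in wild type and at 0.608, 0.305 and 0.49 in HIP. With 62 reads over 6 libraries the gap between the groups was about a read (log2 difference -0.65, SE 0.67, limma adjusted p = 0.846).

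Cyp2u1, which hydroxylates long-chain fatty acids, stood at 6.68, 9.95 and 15.4 CPM in wild type and at 18.8, 16.5 and 14.8 in HIP. Cyp2j10, of the epoxygenase subfamily, stood at 3.46, 5.65 and 11.6 CPM in wild type and at 17.1, 14.0 and 7.23 in HIP. Both genes ordered the libraries alike, HIP30 first, then HIP2, WT4, HIP3, WT1 and WT26, so WT4 lay above HIP3 in each.

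Cyp4v3, an omega-hydroxylase, stood at 8.59, 11.2 and 18.2 CPM in wild type and at 15.7, 16.2 and 4.96 in HIP. Its highest library was wild type and its lowest HIP. Cyp4a1, a lauric acid hydroxylase induced through the fatty acid receptor PPAR alpha, stood at 0.298, 1.84 and 2.37 CPM in wild type, with no read in HIP30, 0.0611 CPM in HIP2 and 4.84 in HIP3. HIP3 alone carried nearly all of the HIP reads. Over the class, 5 tested genes had a positive and 5 a negative difference (median log2 -0.052). This median was positive without HIP3 (0.23), without WT4 (0.076) and without both (0.24), and with library totals (0.021) or a filter of 1 CPM (0.048). Summed CPM ran from 156 to 181 in wild type and from 155 to 195 in HIP.

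**Figure D3:**
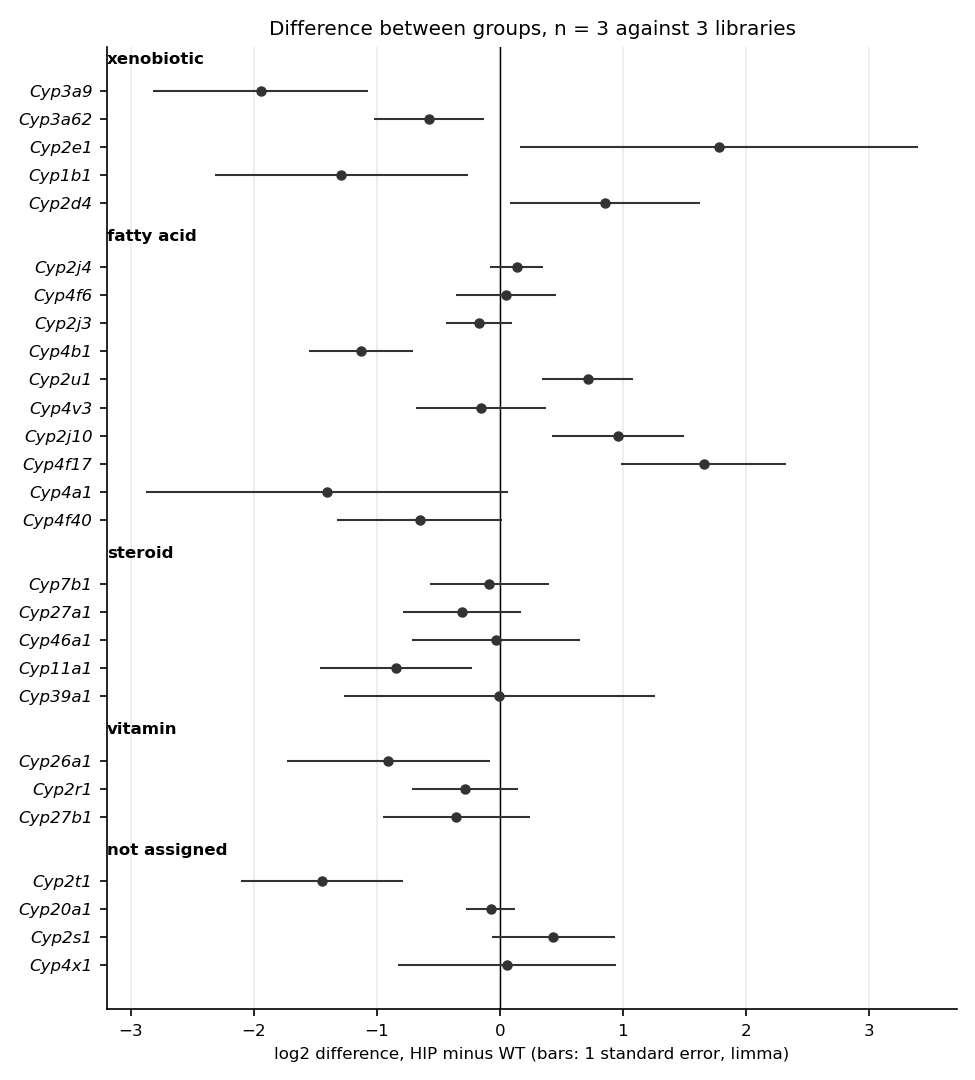
Log2 difference, HIP minus wild type, of the 27 tested P450 genes by substrate class, with bars of 1 standard error from limma (n = 3 against 3 libraries). Values run from -1.95 (Cyp3a9) to 1.78 (Cyp2e1), and the bars are narrowest for Cyp20a1 and Cyp2j4.

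In the steroid and bile acid class, the oxysterol hydroxylase gene Cyp7b1 stood at 7.57, 5.59 and 12.4 CPM in wild type and at 4.62, 7.69 and 12.3 in HIP. WT4 and HIP3 were the high libraries of their groups (log2 difference -0.085, SE 0.49, limma adjusted p = 0.981). Cyp27a1, the mitochondrial sterol hydroxylase that starts the alternative route to bile acids, stood at 4.89, 4.05 and 10.0 CPM in wild type and at 4.68, 6.11 and 3.62 in HIP. WT4 stood apart from the other 5 libraries (log2 difference -0.31, SE 0.48, limma adjusted p = 0.912). Cyp46a1, the cholesterol hydroxylase known from brain, stood at 1.43, 1.23 and 0.851 CPM in wild type and at 2.01, 1.34 and 0.49 in HIP, with HIP holding both extremes. Cyp7a1, the rate-limiting enzyme of the main liver route to bile acids, had 9 reads in WT4 and 1 in HIP2, and Cyp8b1 of the same route a single read in WT4.

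Cyp11a1, which cleaves the cholesterol side chain to begin steroid hormone synthesis, stood at 1.37, 1.35 and 1.95 CPM in wild type and at 0.486, 0.794 and 1.29 in HIP. The groups did not overlap, but HIP3 and WT1 differed by about a read. Means were 1.56 ± 0.337 and 0.856 ± 0.404 CPM (SD, n = 3), a log2 difference of -0.85 (SE 0.62, limma adjusted p = 0.762). Of the other steroid hormone genes, Cyp21a1, the adrenal hydroxylase, stood at 2.44, 0.43 and 1.34 CPM in wild type and at 0.243, 0.366 and 0.123 in HIP. It too did not overlap, by about a read, but it missed the filter and was not tested. In GRCr8 its span overlaps the transcribed pseudogene Tnxa-ps1, which ran from 2.89 to 9.48 CPM in wild type and from 2.69 to 7.23 CPM in HIP. Cyp11b2, which makes aldosterone, had 0.491 CPM in WT1 and 1.88 in WT4, 0.122 in HIP2 and no read elsewhere, and the aromatase gene Cyp19a1 had 15 reads over all libraries. Below the filter the xenobiotic gene Cyp2d3 had 4, 1 and 3 wild-type reads against 1 in HIP30 and none in HIP2 and HIP3, so that WT1 and HIP30 tied in reads.

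Star, which brings cholesterol to Cyp11a1 in steroidogenic cells, ran from 4.23 to 10.6 CPM in wild type and from 5.45 to 10.4 CPM in HIP, and Nr5a1, the factor that defines those cells, was at most 0.119 CPM. The summed steroidogenic list, with 2 of 3 genes in the tables, was 4.35 to 10.6 CPM in wild type and 5.51 to 10.4 CPM in HIP. All 5 tested genes of the class had a negative difference, but it was near 0 for Cyp39a1 (-0.0037) and Cyp46a1 (-0.032). All but Cyp11a1 changed sign in some alternative. Cyp39a1 stood at 0, 0.491 and 3.53 CPM in wild type and at 0.912, 0.733 and 0.184 in HIP. The class median log2 of -0.085 is within 0.1 of the 0.0097 of all genes. It turned positive without WT4 (0.075) and without WT4 and HIP3 (0.26), in a range of -0.43 to 0.26 over the alternatives.

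Of the genes not assigned to a class, Cyp2t1, whose substrate is not known, stood at 189, 91.6 and 39.9 CPM in wild type and at 16.96, 26.9 and 74.2 in HIP. HIP3 lay between WT1 and WT4, and the other HIP libraries lay below every wild-type one. Means were 107 ± 75.9 and 39.4 ± 30.6 CPM (SD, n = 3), a log2 difference of -1.45 (SE 0.66, limma adjusted p = 0.691). The difference was -3.47 between HIP30 and WT26 and -0.43 among the libraries numbered 1 to 4. Its span touches that of Egln2 by 11 bases in GRCr8, and Egln2 ran from 30.5 to 62.8 CPM.

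Cyp20a1, an orphan enzyme, stood at 37.8, 37.8 and 42.1 CPM in wild type and at 35.6, 34.1 and 42.3 in HIP. It was the P450 gene with the smallest standard error, and the log2 difference of -0.075 (SE 0.20, limma adjusted p = 0.951) lay inside it. Cyp2s1, known from epithelia and induced through the aryl hydrocarbon receptor, stood at 10.4, 16.3 and 30.2 CPM in wild type and at 30.2, 33.5 and 12.6 in HIP. The libraries fell into a high set, WT4, HIP30 and HIP2, and a low set, WT26, WT1 and HIP3, that cut across the groups. Cyp4x1, an orphan of the Cyp4 family under 1 CPM on average, ran from 0.123 to 1.67 CPM in wild type and from 0.486 to 0.855 CPM in HIP.

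Library patterns recurred across classes. Cyp2t1 and Cyp3a9 ordered the 6 libraries identically, WT26 first, then WT1, HIP3, WT4, HIP2 and HIP30. Cyp26a1 shared with them the highest library, WT26, and the lowest, HIP30, but no place between. Cyp2s1 and Cyp2e1 shared the order HIP2, WT4, HIP30, WT1, HIP3, WT26. Genes outside the family had these orders too, Cyb5r3 and Hnf4a that of Cyp2t1, and Nr1h4 that of Cyp2s1. The orders were picked after the values were seen, and their share over all genes was not counted. WT26 held the highest value of 5 tested members and the lowest of 6, and HIP30 the highest of 6 and the lowest of 10. Over all 12102 genes WT26 was highest for 22.9% and lowest for 26.5%, and HIP30 for 23.5% and 24.1%. Summed over all 67 genes, CPM was 577 in WT26, 416 in WT1 and 403 in WT4, against 325 in HIP30, 330 in HIP2 and 405 in HIP3. Much of this spread came from Cyp2t1 and Cyp26a1, at 189 and 112 CPM in WT26 and 16.96 and 11.5 in HIP30. The fatty acid sum was instead highest in HIP30, at 195 CPM against 156 in WT26, so the family did not move as a whole.

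**Figure D4:**
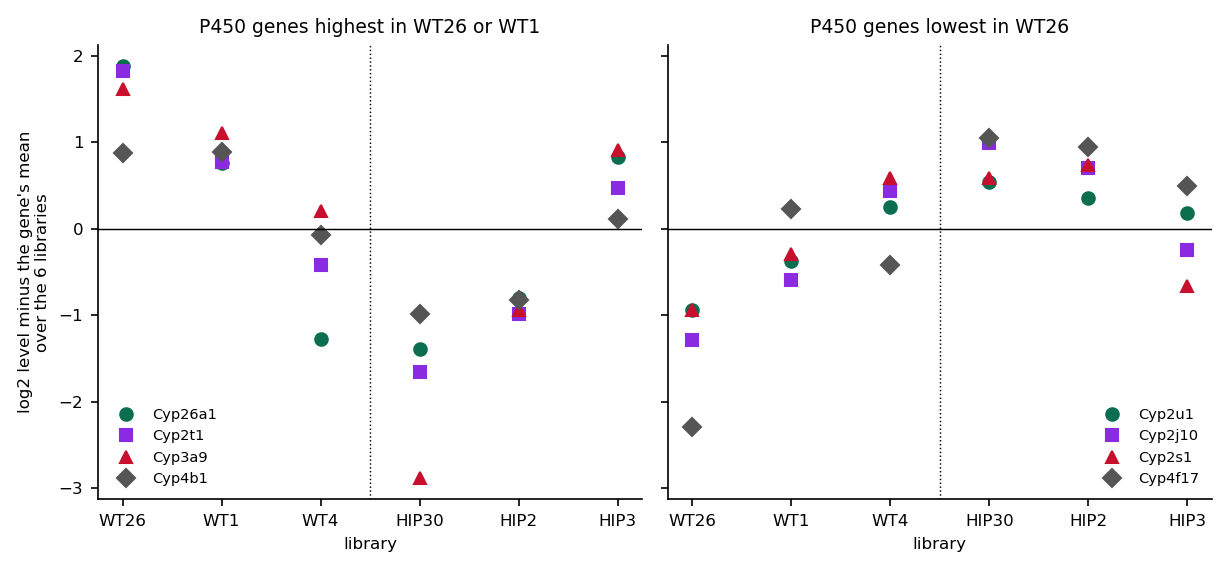
Log2 level of 8 P450 genes in each library minus the gene's mean over the 6 libraries. In the left panel Cyp26a1, Cyp2t1, Cyp3a9 and Cyp4b1 are high in WT26 and WT1 and low in HIP30 and HIP2; in the right panel Cyp2u1, Cyp2j10, Cyp2s1 and Cyp4f17 are lowest in WT26 and high in HIP30 and HIP2.

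Cell type markers varied between the same libraries. Krt19 stood at 7326, 3072 and 1815 CPM in wild type and at 1619, 1514 and 2307 in HIP. The summed duct list, with 4 of 8 genes in the tables, ran from 3460 to 10175 CPM in wild type and from 3267 to 4258 CPM in HIP. Without Krt19, its top gene, it was 2849, 1992 and 1646 CPM in wild type and 2096, 1752 and 1951 in HIP, so that the groups overlapped. Cftr of this list went the other way in part, at 177, 277 and 181 CPM in wild type and 272, 313 and 337 in HIP. The adipocyte list (4 of 4 genes) ran from 65.7 to 152 CPM in wild type and from 26.1 to 61.2 CPM in HIP, with most of its reads from Adipoq, at 150.1, 99.99 and 61.2 CPM in wild type and 19.5, 31.9 and 59.6 in HIP. Plin1 and Lep were below 1 CPM, and Cidec went the other way in part, at 1.37, 0.86 and 3.89 CPM in wild type and 6.57, 2.26 and 0.858 in HIP, highest in HIP30 where Adipoq was lowest. The fibroblast list (6 of 6 genes) ran from 1392 to 2123 CPM in wild type and from 406 to 1722 CPM in HIP, lowest in HIP30 and HIP2. Krt19, Adipoq and the fibroblast sum stood high or low with Cyp26a1, Cyp2t1, Cyp3a9 and Cyp4b1 in part of the libraries, and their part in those levels was not tested.

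The macrophage list (5 of 5 genes) was 27.8 CPM in WT26, 227 in WT1 and 293 in WT4, and 2019 CPM in HIP30, 2044 in HIP2 and 209 in HIP3. Most of the reads of the HIP30 and HIP2 sums came from Mpeg1, at 1929 and 1945 CPM. Without it the other 4 genes summed to 27.8, 45.7 and 107.8 CPM in wild type and 89.3, 98.7 and 65.1 in HIP, so that the groups overlapped. Csf1r, the receptor that defines macrophages, stood at 14.7, 25.1 and 70.2 CPM in wild type and at 57.9, 63.3 and 37.9 in HIP, with WT26 lowest as for Cyp2u1, Cyp2j10, Cyp2s1, Cyp2e1 and Cyp4f17. Its part in those genes' levels was not tested.

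Genes that work with P450 enzymes were followed through 8 lists covering electron transfer, haem, receptors, aryl hydrocarbon receptor targets, retinoids, vitamin D, bile acids and eicosanoids. Of 107 listed genes 101 were in the tables and 95 tested, 45 with a positive and 50 with a negative difference (median log2 -0.018). None passed the adjusted threshold in limma, in limma-voom or in any other alternative. At an unadjusted p under 0.05 stood 11, 4 higher in HIP (background 3.29%) and 7 lower (3.26%). The groups did not overlap for 4 higher (5.27%) and 10 lower (4.27%).

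Of the 11 tested electron transfer genes 5 had a positive and 6 a negative difference. Por, the reductase that serves all reticulum P450 enzymes, stood at 92.5, 102 and 79.5 CPM in wild type and at 52.5, 62.5 and 75.6 in HIP. Each HIP library lay below each wild-type one, HIP3 by a narrow margin (log2 difference -0.53, SE 0.20, limma adjusted p = 0.691). Cyb5r3, which reduces the accessory electron donor cytochrome b5, stood at 104 to 153 CPM in HIP against 149 to 229.5 in wild type, with HIP3 above WT4 (log2 difference -0.69, SE 0.24, limma adjusted p = 0.691). The mitochondrial donor Fdx1, given here although it is not among the 3 genes of lowest p, ran from 27.8 to 42.2 CPM in wild type and from 31.8 to 53.1 in HIP. Cyb5b, the outer mitochondrial cytochrome b5, ran from 116 to 195 and from 120.0 to 148 CPM.

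In haem synthesis and breakdown, 6 of 13 tested genes had a positive and 7 a negative difference (median log2 -0.31), and the groups did not overlap for 1 higher (Hmox2) and 5 lower genes (Alas1, Urod, Uros, Hmox1 and Blvrb), where all tested genes gave 5.27% and 4.27%. Urod, a decarboxylase of haem synthesis, stood at 95.8, 64.7 and 61.6 CPM in wild type and at 46.9, 40.1 and 42.6 in HIP. All HIP libraries lay close together below the wild-type ones (log2 difference -0.75, SE 0.22, limma adjusted p = 0.691). Alas1, which sets the rate of haem synthesis, is given although it is not among the 3 genes of lowest p. It stood at 135, 133 and 123 CPM in wild type and at 81.6, 119 and 116 in HIP, where only HIP30 was far below (limma adjusted p = 0.704). Hmox1, the inducible enzyme that opens haem, ran from 3.32 to 6.87 CPM in wild type and from 1.47 to 3.31 CPM in HIP. Blvrb, a reductase of haem breakdown pigments, ran from 12.5 to 22.1 and from 8.91 to 11.9 CPM. Its relative Blvra, named after its values were seen, overlapped between the groups. Blvra ran from 6.02 to 9.52 CPM in wild type and from 7.35 to 10.7 in HIP (log2 difference 0.28).

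Of 20 tested receptors 10 had a positive and 10 a negative difference. Vdr, the vitamin D receptor and regulator of Cyp24a1 and Cyp27b1, stood at 64.5, 69.5 and 57.3 CPM in wild type and at 23.1, 33.9 and 56.6 in HIP. HIP30 and HIP2 lay far below the wild-type range and HIP3 at its lower edge (log2 difference -0.84, SE 0.32, limma adjusted p = 0.691). Rara, a retinoic acid receptor, ran from 43.8 to 67.4 CPM in wild type and from 61.3 to 101 CPM in HIP, and Nr5a2, a nuclear receptor that acts on bile acid genes, from 0.614 to 6.51 and from 3.74 to 5.71 CPM. Ahr, the aryl hydrocarbon receptor itself, ran from 287 to 385 CPM in wild type and from 286 to 373 in HIP, and was named after its values were seen. Of its 4 tested targets outside the family, 1 had a positive and 3 a negative difference, with Nqo1, a quinone reductase, at 161 to 273 CPM in wild type and 112 to 169 in HIP (log2 difference -0.70, limma adjusted p = 0.691). Ugt1a6, a glucuronosyltransferase, ran from 50.4 to 110.2 CPM in wild type and from 101 to 144 CPM in HIP, and Aldh3a1, an aldehyde dehydrogenase, from 1.35 to 1.58 and from 0.735 to 1.28 CPM.

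Retinoid genes stood at 7 positive and 6 negative of 13 tested, with none at an unadjusted p under 0.05. Lrat, which stores retinol as esters, stood at 14.2, 14.2 and 12.0 CPM in wild type and at 0.851, 5.68 and 13.1 in HIP. HIP30 and HIP2 lay below the wild-type range and HIP3 inside it (log2 difference -1.69, SE 0.85, limma adjusted p = 0.691). Dhrs3, which turns retinal back to retinol and was chosen after its values were seen, stood at 3.52, 11.4 and 45.8 CPM in wild type and at 73.7, 47.3 and 10.2 in HIP. It was lowest in WT26 and highest in HIP30, where Cyp26a1 stood the other way round (limma adjusted p = 0.754). Aldh1a2, which makes retinoic acid, ran from 7.99 to 14.5 CPM in wild type and from 4.96 to 8.33 CPM in HIP, and the retinal reductase Rdh11 from 24.3 to 33.6 and from 33.2 to 49.8 CPM. Vitamin D handling held 4 positive and 3 negative genes, among them Lrp2, an uptake receptor, at 3.22 to 4.55 and 4.29 to 7.999 CPM, and S100g, a calcium carrier, at 3.16 to 8.7 and 1.96 to 6.17 CPM.

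Among 12 tested genes of bile acid and oxysterol handling, 6 had a positive and 6 a negative difference, and 3 higher and 1 lower stood at an unadjusted p under 0.05, where all tested genes gave 3.29% and 3.26%. The lower one was Baat, which joins bile acids to amino acids, at 17.9 to 42.0 CPM in wild type and 4.8 to 14.3 in HIP, named after its values were seen. Fgfr4, the growth factor receptor that restrains Cyp7a1 in liver, stood at 38.8, 40.3 and 68.5 CPM in wild type and at 179.6, 112 and 69.9 in HIP. HIP3 and WT4 nearly met, and the other libraries lay well apart (log2 difference 1.23, SE 0.37, limma adjusted p = 0.691). Slc10a1, the sodium-dependent bile acid importer, stood at 4.11, 4.79 and 5.78 CPM in wild type and at 17.6, 12.3 and 7.78 in HIP, without overlap (log2 difference 1.27, SE 0.41, limma adjusted p = 0.691). Acox2, which shortens the bile acid side chain, ran from 0.43 to 2.49 CPM in wild type and from 2.44 to 4.74 CPM in HIP, meeting WT4 at its lower end (log2 difference 2.04, SE 0.74, limma adjusted p = 0.691).

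Arachidonate and eicosanoid genes held 6 positive and 11 negative differences among 17 tested (median log2 -0.073). Ptgds, a prostaglandin D synthase, stood at 12.9, 11.8 and 19.5 CPM in wild type and at 56.4, 36.1 and 20.2 in HIP. All HIP libraries lay above the wild-type ones, HIP3 by a narrow margin over WT4 (log2 difference 1.26, SE 0.41, limma adjusted p = 0.691). Ephx2, the soluble hydrolase that opens the epoxides made by Cyp2j enzymes, stood at 28.6, 18.7 and 15.2 CPM in wild type and at 56.7, 39.0 and 20.5 in HIP. HIP3 lay inside the wild-type range and the other HIP libraries above it (log2 difference 0.82, SE 0.41, limma adjusted p = 0.691). Alox5ap, which presents arachidonate for leukotriene synthesis, ran from 84.8 to 167 CPM in wild type and from 52.6 to 97.0 CPM in HIP.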

How the data were processed

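Per the submitters' processing notes, the tools included STAR, HTSeq, edgeR and limma, with rn5 as the build; their versions and order and the strandedness are not given in the sources used here. For each of the 6 libraries the authors deposited a log2 CPM value per gene symbol. Reads were recovered by undoing the log and taking off the small count added before it, 0.23 (HIP30) to 0.27 reads (WT26). That count was inferred from the lowest values of each library, with the lowest taken as no read and the next as a single read. This gave whole reads, within 0.1 reads, for 100% of entries. TMM factors were computed from these reads with 30% of log ratios and 5% of levels trimmed; they ranged from 0.933 to 1.09. Testing was limited to 12102 genes that reached 10 reads, scaled to the median library (0.61 CPM), in at least 3 libraries and had 15 reads or more in all. A further 4 rows, of symbols listed more than once, were left out. Groups were compared with limma 3.58.1 (R 4.3.3), with a trend of the variance on the mean level, after adding 2 reads of an average library (0.121 CPM) and taking log2, which makes changes of weakly covered genes look smaller. P-values were adjusted by Benjamini-Hochberg, and unadjusted ones served to count genes under 0.05 and to choose genes to name, and are not printed. The scaling and the limma fit were tried on simulated reads with known changes, and the recovery of reads was not. The simulated libraries did not carry the differences between libraries seen here. A count test was planned only for deposited counts, and the deposited unit is log2, so limma was used. The recovered reads were tested by limma-voom as an alternative.

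Members, classes and gene lists were chosen with earlier results of these data known. Members with a mean of at least 1 CPM are named with all 6 values, members under it where a library reaches 1 CPM; tests are printed for members with an unadjusted p under 0.05, without overlap, or among the 2 highest of a class, and up to 3 partner genes per list are named by lowest p. All 67 symbols matched RefSeq's GRCr8 table, and 55 have a promoter sequence there; rn5 coordinates were not used. The number series of the titles, 26 and 30 against 1 to 4, is not stated to be a batch. Alternatives covered scaling, pseudocount, filter, limma-voom, the number series and leaving out libraries. Figures were drawn with matplotlib 3.10.9.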

Additional observations from a re-analysis of the deposited data

How the results depend on the processing

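The count of P450 genes, partner genes and all genes passing limma's adjusted threshold was 0 in each of the 15 alternatives. Without WT4 and HIP3, 9 of 27 tested members stood at an unadjusted p under 0.05 (lowest adjusted p = 0.0786), without WT4 alone 7 (0.293) and without HIP3 alone 6 (0.147). The share of all genes was larger in these settings too, at 21.5%, 13.3% and 14.9% of 12102, against 6.54% with all libraries. Without WT1 there was 1 member (2.78% of all genes). Without WT26, HIP30 or HIP2 there were 0 (2.79%, 2.31% and 1.94%), and among the libraries numbered 1 to 4 there were 0 (1.29%). Of 27 tested members, 15 kept the sign of their log2 difference in every alternative run and 12 did not. In the libraries numbered 1 to 4 the sign turned for Cyp26a1 (0.28), Cyp2e1 (-0.11), Cyp2s1 (-0.11), Cyp4f6 (-0.21) and Cyp7b1 (0.22). Without WT4 and HIP3 it turned for Cyp27a1 (0.26), Cyp2j4 (-0.052), Cyp39a1 (1.78), Cyp46a1 (0.29) and Cyp4v3 (0.69). It turned with library totals for Cyp39a1 (0.040) and Cyp46a1 (0.038), for Cyp39a1 with a pseudocount of 0.5 reads (0.48) and with limma-voom (0.51), and for Cyp4x1 with 5 reads (-0.035). Leaving out single libraries gave ranges across 0 for Cyp27a1 (-0.57 to 0.075), Cyp2r1 (-0.50 to 0.094), Cyp39a1 (-1.21 to 1.24), Cyp46a1 (-0.42 to 0.48), Cyp4f6 (-0.34 to 0.39), Cyp4v3 (-0.44 to 0.40), Cyp4x1 (-0.77 to 0.67) and Cyp7b1 (-0.43 to 0.27). The cause was not tested. Filtering at 1 CPM removed Cyp39a1, Cyp4f40 and Cyp4x1 from the test. No paired analysis was possible because the groups share no replicate number. With 3 libraries a group, differences of members under about 1 CPM rest on a few reads.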
